A study of Homo sapiens with 4 samples.

Results

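Solute carriers are membrane proteins that move ions, metals, sugars, amino acids, nucleosides, lipids and metabolic acids across the plasma membrane and the membranes of organelles. The genes described here are the solute carriers that RKO cells expressed. They were chosen by their measured level, as the gene symbols made of SLC, a family number, the letter A and a member number whose mean over the 4 samples was at least 1 FPKM (fragments scaled by transcript length and library depth). The table of 15357 genes held 261 such symbols, of which 171 reached the threshold and 90 did not. The table held 44 further symbols that begin with SLC and were outside the rule. They took in carriers with another letter in the symbol, such as SLC35B1, and genes that are not carriers, such as SLC9A3R1 and SLC7A6OS. RKO is a human colon cancer cell line, and all samples were cultured cells of this line infected with lentivirus. The control group was 2 samples with a control hairpin, titled vector, and the knockdown group was 2 samples with CHD7 shRNA-2, a short hairpin RNA against the chromatin remodeller CHD7. A single hairpin in a single line was sequenced, and the labels do not say whether replicates were separate cultures, so p-values measure only the spread between these samples, which may be technical.

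Cells take up amino acids mostly by sodium-coupled symporters and by exchangers that trade internal for external amino acids, with glutamine and leucine as major cargoes in proliferating cells. The SLC25 family sits in the inner mitochondrial membrane and exchanges nucleotides, phosphate and metabolites with the cytosol. The SLC39 and SLC30 families move zinc and other metals into and out of the cytosol, SLC4 and SLC9 set cytosolic pH, SLC2 carries glucose and SLC16 carries lactate.

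Library totals ranged from 15734679 to 16068650 estimated counts, and the members took between 1.33% and 1.37% of each. CHD7 itself was at 85.4 and 91.0 CPM (counts scaled to library size) in control cells, compared with 55.5 and 50.1 CPM after knockdown, a log2 fold change of -0.74 (adjusted p = 4.15e-06, edgeR). The epithelial markers KRT18 and KRT8 were at 58.0 and 12.3 FPKM and the intestinal factor CDX2 at 5.10 FPKM, while CDH1, CDH17, KRT20 and LGR5 were at 0.01 FPKM or less on average. Of the markers of leukocytes, endothelium and fibroblasts in the table, PECAM1 and COL1A1 averaged 0.005 and 0.045 FPKM, and CD68, a lysosomal protein that other cells also make, averaged 559 FPKM.

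The levels of the members were described without a test, since level chose them. Their median was 12.0 FPKM, with quartiles of 5.76 and 25.4, against a median of 14.6 FPKM over the 10973 genes at or above 1 FPKM. Expression was concentrated in a few carriers. The 10 highest members held between 41.8% and 44% of the summed FPKM of all members in each sample. SLC25A6 and SLC25A5, the ADP/ATP carriers that export ATP from mitochondria, led with 407 and 361 FPKM. These paralogs are near-identical over much of their sequence, so reads divided between them make their separate values uncertain. SLC25A3, the mitochondrial phosphate carrier, followed with 312 FPKM. The next levels belonged to SLC38A2, a sodium-coupled neutral amino acid transporter, with 196 FPKM, and to SLC25A39, a mitochondrial glutathione carrier, with 154 FPKM.

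Mitochondrial carriers were the largest cargo group, with 39 of 47 symbols expressed and between 38.1% and 39.8% of the members' summed FPKM. Amino acid transporters, with 24 of 40 symbols expressed, held between 20.8% and 23.1%. Metal and heme transporters, with 24 of 28 expressed, held between 13.5% and 14.5%. The median members of these 3 groups were at 17.3, 15.1 and 21.5 FPKM. Transporters of sugars and polyols, with 11 of 22 symbols expressed, had a median of 7.26 FPKM, and SLC2A1 (GLUT1) at 43.7 FPKM led them. Lactate export was represented by SLC16A3 (MCT4) at 63.0 FPKM and SLC16A1 (MCT1) at 53.8 FPKM.

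**Figure D1:**
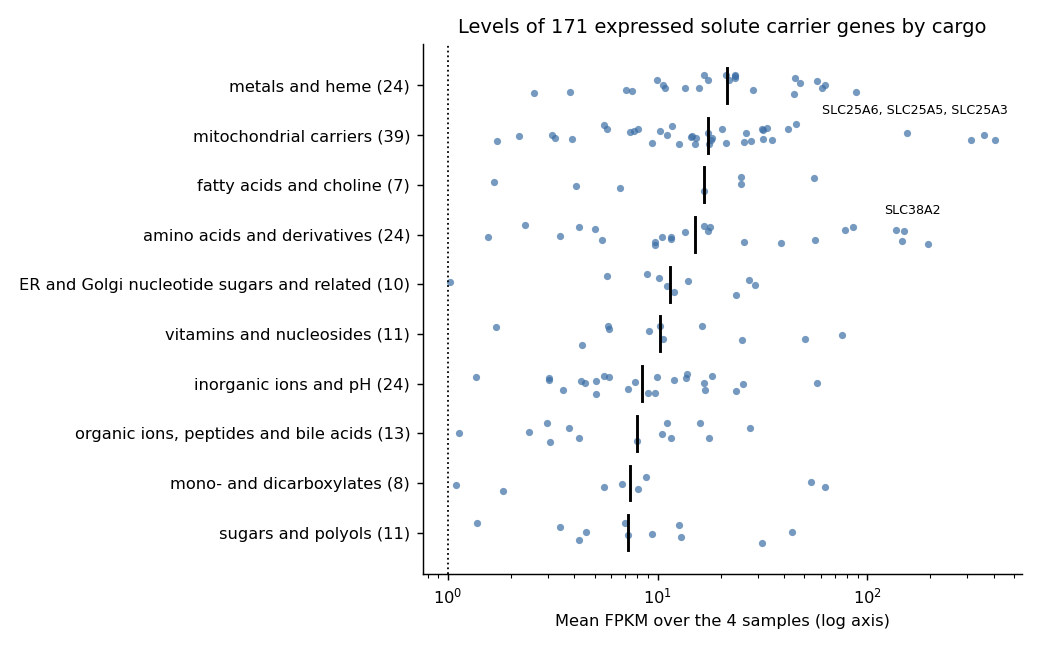
Mean FPKM over the 4 samples on a log axis for each of the 171 members, 1 point per gene, by cargo group with the number of members in brackets. Black bars are group medians and the dotted line is the threshold of 1 FPKM. The points at the far right are the mitochondrial carriers SLC25A6, SLC25A5 and SLC25A3, between 312 and 407 FPKM.

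The 2 members just above the threshold were SLC16A7 (MCT2) at 1.10 FPKM and SLC37A2 at 1.02 FPKM, and the 2 symbols just under it were SLC10A5 at 0.915 and SLC45A1 at 0.858 FPKM. Of the 90 symbols below the threshold, 58 were under 0.1 FPKM in every sample and 12 were listed at 0 in every sample. Absorptive carriers of the differentiated intestine were among those near 0. The glucose cotransporter SLC5A1 averaged 0.0025 FPKM, and the bile acid transporter SLC10A2 was listed at 0. The heteromer partners for cystine uptake differed as well, with SLC3A2 (4F2hc) at 137 FPKM and SLC3A1 (rBAT) at 0.0125 FPKM.

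All 171 members passed the filter on low counts and were tested among 11955 genes. In what follows a gene passed the test at an adjusted p under 0.05 and was called where the change was also at least 1.5-fold. Of the members, 5 were called (2.92%), against 2.88% of all genes tested. Called higher after knockdown were 3 members (1.75%, against 1.51% of all genes) and called lower were 2 (1.17%, against 1.37%). Without the fold threshold, 19 members passed (11.1%), 8 higher and 11 lower, against 11.5% of all genes. The 2 groups of samples did not overlap for 90 members (52.6%), against 53.7% of all genes. Among the genes tested with a mean of at least 1 FPKM, the level at which members were chosen, 2.4% were called, 1.04% higher and 1.36% lower, and 11.8% passed. The shares among solute carriers were thus near those of the whole table, with 1.75% against 1.04% called higher at the members' own level.

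Most members moved little. The median log2 fold change was 0.01, with quartiles of -0.11 and 0.12, and 129 members (75.4%) lay within 0.2 of 0, against 67.6% of all genes and 71.1% of those with a mean of at least 1 FPKM. The 95% confidence interval of the change lay within 1.5-fold in both directions for 153 members (89.5%), against 80.5% of all genes tested and 87.4% of those with a mean of at least 1 FPKM. For these 153 carriers a change of 1.5-fold or more was outside the interval. The summed FPKM of the members was 4826 and 4662 in control cells and 4683 and 4795 after knockdown, so the groups overlapped.

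**Figure D2:**
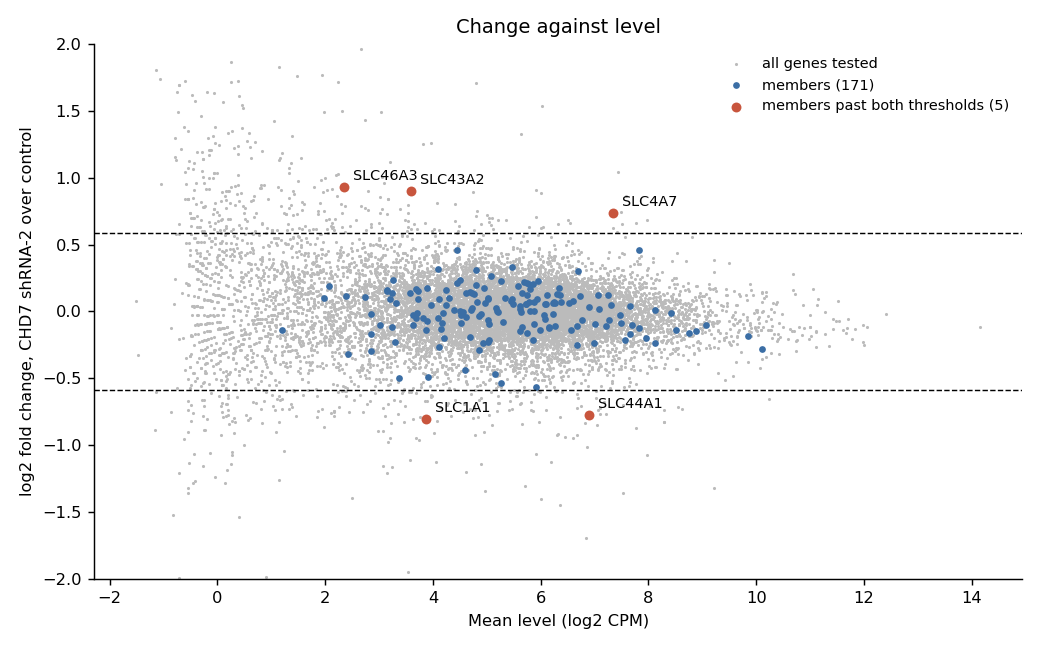
The log2 fold change of knockdown over control (vertical axis) against mean level in log2 CPM (horizontal axis) for all 11955 genes tested in grey, the members in blue and the 5 called members in red. Dashed lines mark a 1.5-fold change, and 28 genes beyond a log2 change of 2 are not drawn. The members lie in the body of the grey points, between -0.80 and 0.93.

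The carrier with the smallest p was SLC44A1 (CTL1), a plasma membrane choline transporter that feeds phosphatidylcholine synthesis. Its gene lies at chr9:105244622-105439171 on the + strand of GRCh38. It was at 146 and 167 CPM with the control hairpin and 95.6 and 87.4 CPM with CHD7 shRNA-2. Both knockdown samples were below both control samples, a log2 fold change of -0.78 ± 0.09 (SE, n = 2 per group, adjusted p = 1.33e-06, edgeR). Its paralog SLC44A2 was at 52.4 and 50.1 CPM in the controls, while the knockdown samples read 52.2 and 59.5 CPM, which overlapped.

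SLC1A1 (EAAT3), a sodium-coupled importer of glutamate, aspartate and cysteine at chr9:4490444-4587469 (+), fell the most. It was at 18.4 and 19.8 CPM in control cells, compared with 11.2 and 10.7 CPM after knockdown. The groups did not overlap, and the log2 fold change was -0.80 ± 0.13 (SE, n = 2 per group, adjusted p = 1.69e-04, edgeR). SPATA6L, also tested, overlaps it on the opposite strand over 34084 bases, and since strand use in counting was not given, reads of the pair cannot be told apart there. The other SLC1 members expressed, SLC1A4 and SLC1A5, carry neutral amino acids and did not pass the test, with log2 fold changes of -0.13 and -0.14.

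SLC4A7 (NBCn1), a sodium bicarbonate cotransporter that loads base into the cell, is at chr3:27372721-27484420 on the - strand. It was at 117 and 134 CPM with the control hairpin and 235 and 184 CPM with CHD7 shRNA-2. It rose by a log2 fold change of 0.74 ± 0.10 (SE, n = 2 per group, adjusted p = 1.74e-05, edgeR). The knockdown samples differed from each other by more than the control samples did, and without the first knockdown sample the log2 fold change was 0.54, under the fold threshold.

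SLC43A2 (LAT4), a facilitated transporter of branched-chain amino acids and phenylalanine at chr17:1569267-1628886 (-), was at 9.21 and 8.30 CPM in the controls, while the knockdown samples read 16.5 and 16.2 CPM. The samples within each group were close, and the log2 fold change was 0.90 ± 0.14 (SE, n = 2 per group, adjusted p = 1.11e-04, edgeR). Its paralog SLC43A1 (LAT3) was at 59.8 and 56.8 CPM in control cells, compared with 55.9 and 60.7 CPM after knockdown, with a 95% interval of the log2 fold change from -0.18 to 0.18.

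SLC46A3, a transporter of the lysosomal membrane at chr13:28700064-28718970 (-), had the largest rise among the members. It was at 3.80 and 3.36 CPM with the control hairpin and 6.74 and 6.89 CPM with CHD7 shRNA-2, from between 53 and 110 counts per sample. The log2 fold change was 0.93 ± 0.19 (SE, n = 2 per group, adjusted p = 0.00184, edgeR). The call was lost under 5 of the 11 other settings that kept all samples, among them DESeq2 (adjusted p = 0.0522) and edgeR without a filter on low counts (adjusted p = 0.056). SLC46A3 and SLC43A2 were among the lowest members by level, at 1.69 and 1.56 FPKM. SLC46A1, the folate transporter of the same family, was at 35.4 and 38.6 CPM in the controls, while the knockdown samples read 39.2 and 34.5 CPM.

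A further 14 members passed the test with changes under 1.5-fold. SLC26A2, a sulfate transporter needed for proteoglycan sulfation, fell from 69.8 and 77.3 CPM to 53.4 and 45.9 CPM, a log2 fold change of -0.57 ± 0.09 (SE, n = 2 per group). SLC5A3, which imports myo-inositol with sodium, fell from 44.2 and 48.5 CPM to 34.7 and 29.3 CPM, a log2 fold change of -0.53. SLC5A3 lies inside the locus of MRPS6 on the same strand, sharing 32693 bases, so reads of the pair are uncertain. SLC25A43, a mitochondrial carrier with no established cargo, fell from 40.8 and 42.3 CPM to 29.9 and 30.2 CPM, a log2 fold change of -0.47.

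SLC25A39, which brings glutathione into mitochondria and was the fifth most expressed member, rose from 200.1 and 185 CPM to 247 and 281 CPM, a log2 fold change of 0.46 ± 0.08 (SE, n = 2 per group, adjusted p = 4.69e-04, edgeR). It was the only mitochondrial carrier of 39 that rose, and SLC25A43 the only one that fell, at the thresholds used. SLC2A8 (GLUT8), an intracellular hexose transporter, rose from 20.8 and 16.3 CPM to 22.3 and 28.7 CPM, a log2 fold change of 0.46. SLC4A8, a sodium-driven chloride bicarbonate exchanger, rose from 89.2 and 97.7 CPM to 121 and 110 CPM, a log2 fold change of 0.30. The knockdown sample of SLC2A8 nearest to control was above the higher control sample by less than the control samples differed. Its log2 fold change was 0.29 without the second control sample and 0.26 without the second knockdown sample, and it passed in neither fit. SLC4A8 passed in 1 of the 4 fits that left out a sample.

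SLC22A18, an organic cation transporter of an imprinted locus, fell from 12.8 and 11.5 CPM to 7.80 and 9.40 CPM, a log2 fold change of -0.50. It ranged from -0.37 to -0.64 with 1 sample left out and passed in 1 of those 4 fits. SLC22A18AS overlaps it on the opposite strand over 4020 bases and was also tested, so the reads cannot be told apart there. SLC39A14 (ZIP14), an importer of zinc, iron and manganese, fell from 300.4 and 302 CPM to 260.3 and 251 CPM, a log2 fold change of -0.24, the smallest of those that passed. SLC39A14 no longer passed under 7 of the 11 other settings that kept all samples, and it passed in 1 of the 4 fits that left out a sample.

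Amino acid transporters held 8 of the 19 members that passed, which is 33.3% of the 24 in the group, against 11.5% of all genes tested. This count moved with the processing. It was 3 of the 11 members that passed under DESeq2, 5 of 15 under limma on log2(FPKM + 1) and 2 of 3 in edgeR with low counts kept. It was 0 under limma without the FPKM filter, where 0 members passed, and 0 of 3 in DESeq2 with a replicate block. Under a crossed pairing it was 13 of 50. With 1 sample left out, the median log2 fold change of the group ran from -0.136 to -0.095. The share of all genes that passed in these fits is not given here. Of the 24, 17 were lower and 7 higher after knockdown, with a median log2 fold change of -0.12, against 0.0006 over all genes tested. The count of lower members ranged from 15 to 19 over the other scalings, tests and left-out samples. The summed FPKM of the group was 1105 and 1077 in control cells and 1034 and 996 after knockdown, which did not overlap. This was not particular to the group. The sums of metal and heme, inorganic ion, ER and Golgi, and sugar and polyol carriers did not overlap either, and these were higher after knockdown. FPKM ran slightly higher after knockdown in general. The median log2 fold change of genes at a mean of at least 1 FPKM was 0.038 by limma on log2(FPKM + 1). As shares of the members' summed FPKM, metal and heme carriers overlapped, at 13.5% and 14.1% in control and 14.5% and 13.9% after knockdown. The shares of the other 4 groups did not, with the amino acid group at 22.9% and 23.1% against 22.1% and 20.8%. Of the 8 amino acid transporters that passed, 5 fell and 3 rose.

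Those that fell beside SLC1A1 took in 2 members of the SNAT family, SLC38. SLC38A1 (SNAT1), which accumulates glutamine, fell from 1168 and 1254 CPM to 1078 and 919 CPM, a log2 fold change of -0.28 ± 0.08 (SE, n = 2 per group). Without the second control sample it was -0.23 and without the second knockdown sample -0.17, and SLC38A1 passed in neither fit nor under 5 of the 11 other settings. SLC36A4, a transporter of proline and tryptophan, fell from 26.4 and 29.96 CPM to 21.4 and 20.2 CPM, a log2 fold change of -0.44. SLC38A6 (SNAT6), a less studied relative of SLC38A1, fell from 18.6 and 16.8 CPM to 12.5 and 12.7 CPM, a log2 fold change of -0.49. SLC36A4 passed under 5 and SLC38A6 under 7 of the 11 other settings that kept all samples, and neither passed under DESeq2. SLC7A6 (y+LAT2), an exchanger of arginine for glutamine, fell from 113 and 111 CPM to 95.04 and 93.3 CPM, a log2 fold change of -0.25 with an adjusted p of 0.0474 (edgeR). SLC7A6 passed under 2 of the 11 other settings and in 0 of the 4 fits that left out a sample. SLC7A6OS, also tested, overlaps it on the opposite strand over 17321 bases, so reads of this pair are uncertain as well.

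Those that rose beside SLC43A2 were both lysosomal. SLC38A7 (SNAT7), which exports glutamine from lysosomes, rose from 37.5 and 41.7 CPM to 46.6 and 53.1 CPM, a log2 fold change of 0.33. SLC38A9, the lysosomal arginine sensor upstream of mTORC1, rose from 25.2 and 24.9 CPM to 32.4 and 29.6 CPM, a log2 fold change of 0.31. SLC38A9 was close to the threshold, with an adjusted p of 0.0469 (edgeR), and passed in 1 of the 4 fits that left out a sample, while SLC38A7 passed in 2. The SNAT family thus held members that passed in both directions, SLC38A1 and SLC38A6 lower and SLC38A7 and SLC38A9 higher.

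**Figure D3:**
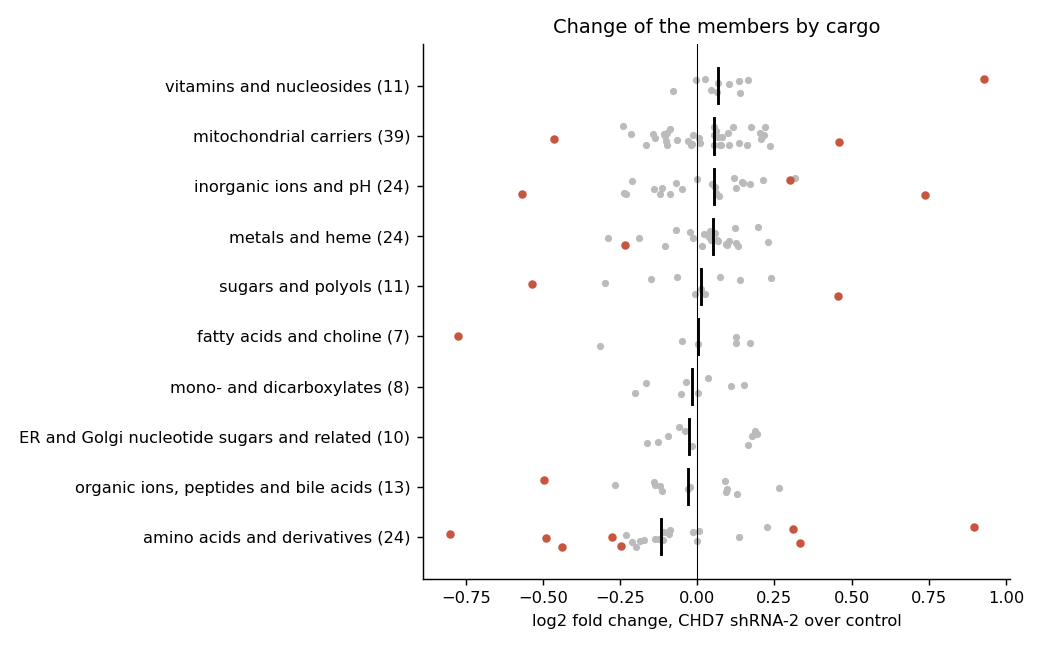
The log2 fold change of knockdown over control for each member, by cargo group with the number of members in brackets. Red points passed the test (19 genes), grey points did not, and black bars are medians. The amino acid group has the lowest median, -0.12, with 17 of 24 points left of 0.

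Lists of carriers linked to stress and growth programmes were counted next. ATF4 is a transcription factor that raises amino acid transporters when amino acids are short. Of 10 ATF4-linked carriers tested, 8 were lower and 2 higher, with a median log2 fold change of -0.13, none was called and SLC38A1 alone passed the test. Of all genes tested, 2.88% were called, 11.5% passed and 5962 of 11955 were lower. The list consists mainly of amino acid transporters, of which 17 of 24 were lower with a median of -0.12, so the lean is not particular to it. SLC7A11 (xCT), which imports cystine for glutathione and which p53 is also known to repress, was at 128 and 137 CPM in control cells, compared with 137 and 112 CPM after knockdown. These overlapped, with a 95% interval of its log2 fold change from -0.28 to 0.10. Its partner SLC3A2 was at 278 and 256 CPM with the control hairpin and 225 and 241 CPM with CHD7 shRNA-2, a log2 fold change of -0.20 with an adjusted p of 0.0969 (edgeR). SLC7A5 (LAT1), the leucine exchanger that also pairs with SLC3A2, had an interval from -0.17 to 0.15.

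Of 8 MYC-linked carriers 7 were lower, with a median log2 fold change of -0.12, and none passed the test. The list shares SLC1A5, SLC7A5 and SLC3A2 with the ATF4-linked list and SLC2A1 with the p53-linked and hypoxia-linked lists. SLC1A5 (ASCT2), the exchanger that supplies glutamine, was at 397 and 369 CPM in the controls, while the knockdown samples read 334 and 362 CPM, a log2 fold change of -0.14 with an adjusted p of 0.258 (edgeR). Of the 5 p53-linked carriers tested none passed. They include SLC2A4 (GLUT4), which at 0.652 FPKM is not a member and whose 95% interval of the log2 fold change ran from 0.0037 to 1.22. SLC2A1 had a 95% interval of the log2 fold change from -0.22 to 0.10, and the taurine transporter SLC6A6 had one from -0.40 to -0.02. Of the 3 hypoxia-linked carriers, SLC2A1, SLC2A3 and SLC16A3, none passed either. The other members of these lists that are not described above, SLC7A1, SLC6A9, SLC38A5, SLC25A32, SLC19A1 and SLC19A2, had log2 fold changes between -0.23 and 0.16.

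In the other cargo groups the shares that passed lay on both sides of the 11.5% of all genes tested, each from 0 to 3 members. Of 11 transporters of sugars and polyols 2 passed (18.2%), SLC2A8 higher and SLC5A3 lower, and of 7 transporters of fatty acids and choline 1 passed (14.3%), SLC44A1. Of 13 transporters of organic ions, peptides and bile acids 1 passed (7.69%), SLC22A18, and of 39 mitochondrial carriers 2 passed (5.13%). Of 24 metal and heme transporters, 17 were higher and 7 lower, with SLC39A14 the only one that passed (4.17%). Of 11 transporters of vitamins and nucleosides, 9 were higher and 2 lower, and SLC46A3 alone passed (9.09%). Groups went by gene family unless a gene was assigned singly, and no vitamin or nucleoside cargo is described for SLC46A3 here. Without the second control sample or the second knockdown sample, 5 of this group were higher and 6 lower. Of 24 transporters of inorganic ions, 13 were higher and 11 lower, with SLC4A7 and SLC4A8 higher and SLC26A2 lower past the test (12.5%). None passed among the 10 carriers of the ER and Golgi, such as the nucleotide sugar transporters, or among the 8 of mono- and dicarboxylates. In these 2 groups, the median log2 fold changes were -0.03 and -0.02.

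Sequence in the 3′ untranslated region (UTR) was compared because earlier results of these same samples had shown 3 words of 7 bases to be common in genes that were lower after knockdown. These are AGCTATT, the overlapping word GCTATTA shifted downstream by 1 base, and GAAGCTA, which ends in AGCTA, the start of AGCTATT. All 3 words contain GCTA. The words come from the same libraries and are therefore no independent evidence here. In the longest annotated 3′ UTR of each gene, 40 of the 171 members (23.4%) held at least 1 of the words, against 22.4% of the 11691 genes that were tested and have an annotated 3′ UTR. Of the 11 members that fell, 8 held a word (72.7%), against 54.8% of all genes that fell. Of the 8 that rose, 1 held a word, SLC4A8 (12.5%, against 13.6% of all genes that rose). SLC1A1, SLC38A6 and SLC22A18 fell and held none of the words.

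Longer UTRs hold more words. The median UTR length was 4336 bases in members with a word and 1366 bases in those without. Among members with a UTR of at least 4000 bases, 23 held a word, of which 6 fell and 1 rose, and 8 held none, of which 0 fell and 2 rose. Of all genes with a UTR of this length, 12.1% of the 949 with a word fell and 3.58% rose, against 2.79% and 7.14% of the 574 without. Among members with a shorter UTR, 17 held a word, of which 2 fell and 0 rose, and 123 held none, of which 3 fell and 5 rose. Of all genes with a shorter UTR, 18.3% of the 1664 with a word fell and 2.7% rose, against 3.89% and 5.43% of the 8504 without. Of the 31 members that held a word and did not pass, SLC9A7, a sodium/proton exchanger of the Golgi, held all 3 words and had a log2 fold change of -0.24 (adjusted p = 0.0607, edgeR).

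The sites in carriers that fell are shown so that the words can be read in their sequence. These carriers do not all hold the same word, as SLC5A3 and SLC39A14 held only AGCTATT, while SLC25A43, SLC36A4, SLC38A1 and SLC7A6 held only GAAGCTA. Coordinates are those of GENCODE 29 on GRCh38, with the strand in brackets, the sequence is the transcript's 5′ to 3′, and capitals mark the words. The base of the UTR given is that of the first capital, and the coordinates span all letters shown.
SLC44A1, chr9:105390347-105390367 (+), first capital at base 1298 of the UTR: taaaaaaAGCTATTtttgtta
SLC44A1, chr9:105390843-105390863 (+), first capital at base 1794 of the UTR: cgagagtAGCTATTttgaaag
SLC44A1, chr9:105391247-105391276 (+), first capital at base 2198 of the UTR: caatctcAGCTATTtgGAAGCTAccaggaa
SLC26A2, chr5:149981938-149981958 (+), first capital at base 132 of the UTR: ctcctttGAAGCTAatggcat
SLC26A2, chr5:149982784-149982805 (+), first capital at base 978 of the UTR: cacctaaAGCTATTAtgcagga
SLC5A3, chr21:34100400-34100420 (+), first capital at base 3052 of the UTR: cttccccAGCTATTctttcct
SLC25A43, chrX:119453149-119453169 (+), first capital at base 91 of the UTR: gggatgaGAAGCTActgctat
SLC36A4, chr11:93147529-93147549 (-), first capital at base 995 of the UTR: agagaaaGAAGCTAtgttctt
SLC38A1, chr12:46188239-46188259 (-), first capital at base 718 of the UTR: attaaatGAAGCTAcacattt
SLC7A6, chr16:68300985-68301005 (+), first capital at base 4377 of the UTR: gggccaaGAAGCTAaagctaa
SLC44A1 held 4 words in 3 places, with an AGCTATT and a GAAGCTA 2 bases apart in the last. In SLC26A2, the 8 capitals are AGCTATT and GCTATTA overlapping. The site of SLC39A14, which also fell and held an AGCTATT, is not shown. A match of letters is a description and not a measured binding site.

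CHD7 acts on chromatin, so the DNA at the start of the carriers with the smallest p in each direction is shown, from 250 bases before to 50 bases after the annotated start (RefSeq, GRCh38.p14, 5′ to 3′ on the strand of the gene). CHD7 binding at these windows was not measured in the data used here.
SLC44A1, chr9:105244401-105244700 (+): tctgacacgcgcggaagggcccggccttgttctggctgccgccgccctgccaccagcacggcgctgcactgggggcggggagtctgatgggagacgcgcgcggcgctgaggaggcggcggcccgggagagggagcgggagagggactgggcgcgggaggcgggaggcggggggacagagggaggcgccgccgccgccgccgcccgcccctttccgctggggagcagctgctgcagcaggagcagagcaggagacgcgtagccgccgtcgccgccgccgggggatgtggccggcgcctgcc
SLC4A7, chr3:27484335-27484634 (-): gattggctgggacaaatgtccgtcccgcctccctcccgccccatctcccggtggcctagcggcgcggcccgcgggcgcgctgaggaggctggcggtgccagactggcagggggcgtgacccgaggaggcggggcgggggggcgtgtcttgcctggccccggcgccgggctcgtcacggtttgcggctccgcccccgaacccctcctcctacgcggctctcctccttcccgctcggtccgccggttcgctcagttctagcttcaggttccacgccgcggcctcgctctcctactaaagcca
Both are rich in G and C, at 78.3% with 40 CG dinucleotides in SLC44A1 and 73% with 36 in SLC4A7, against medians of 67.5% and 27 over the 138 members with a window. Neither window holds the E-box CACGTG, which MYC and other factors bind, the AP-1 word TGACTCA, or TTGCATCA, a core of the ATF4 response element, on either strand. The E-box was in 21 of the 138 member windows (15.2%) and in 10.4% of all 9457 windows of tested genes. The AP-1 word was in 6 member windows (4.35%, against 2.98%), among them those of SLC43A2 and SLC38A1, which moved in opposite directions. The SLC43A2 window, chr17:1604985-1605284 (-), lies inside the gene span given above and not at its 5′ end. The ATF4 word was in 0 member windows and in 0.41% of all.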

How the data were processed

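RNA was extracted with Trizol and captured on oligo-dT beads, so values describe polyadenylated transcripts. The authors deposited estimated counts per gene, not normalized, and FPKM values of the same genes, normalized by the authors for length and depth. The submitters' processing notes name Bowtie2, RSEM and DESeq2 with hg38, without versions, and the annotation is not given in the sources used here. Between 13.6% and 14.7% of a sample's count values were not whole numbers, as when reads are divided between similar genes, which makes paralogs uncertain.

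Counts were rounded to whole numbers. With edgeR 4.0.16 in R 4.3.3, low counts were removed by filterByExpr, libraries were scaled by TMM and the quasi-likelihood test was run, with p-values adjusted by Benjamini-Hochberg over all 11955 genes (biological coefficient of variation 0.0579). CPM use TMM-scaled library sizes, SEs derive from the F statistic, and 95% intervals from the SE. The thresholds are those of the study. With 2 against 2 samples the smallest two-sided exact permutation p is 0.333. Chi-square per gene between replicates was 3.95 in control and 6.08 in knockdown samples, above sampling noise, so each counted as 1 sample. Deviations of same-numbered samples correlated at -0.198 over genes tested and -0.391 over members. This gave no sign of pairing by number, but it rests on a single difference per group and cannot exclude it. With 2 samples per group, crossed numbers give the same sizes with the sign reversed. The tests were checked on simulated data.

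The members, cargo groups, lists and words were chosen with earlier results of these data known. Named genes are all members that passed the test with groups that did not overlap, the 5 highest by level, the pairs around the FPKM threshold and the members of the 4 linked lists. Other names, including paralogs of called members, were chosen after their values were seen. Of the 171 members, all matched GENCODE 29 by symbol and 138 matched a RefSeq window. Alternatives used DESeq2 1.42.0, limma 3.58.1 on log2 FPKM (pseudocounts 1 and 0.1), other scalings, filters and FPKM thresholds, a replicate block and leaving out each sample. UTRs were read in Python 3.11.15.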

Additional observations from a re-analysis of the deposited data

How the results depend on the processing

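The limits come first. With 2 samples per group, of 1 hairpin and 1 cell line, the loss of CHD7 and other effects of the hairpin cannot be told apart. Counts near 100 per sample, as for SLC46A3, limit precision, and intervals cover only the spread between these samples.

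Of the members called, SLC44A1, SLC1A1, SLC43A2 and SLC46A3 stayed past both thresholds when any sample was left out. Over the 11 alternatives that kept all samples, limma without the FPKM filter lost all 5 calls and DESeq2 with a replicate block lost all but SLC44A1. SLC46A3 was also lost under DESeq2, edgeR without a filter and limma on log2(FPKM + 1), SLC4A7 under edgeR without a filter, and SLC43A2 under limma on log2(FPKM + 1). Of the other 14 that passed, SLC26A2, SLC25A39, SLC5A3 and SLC25A43 passed with any sample left out, and the others in 0 to 3 of the 4 fits. Leaving out 1 sample gave 5 to 8 members called, 3 to 4 of them higher and 2 to 4 lower, with 11 to 26 past the adjusted p alone and a median log2 fold change from -0.0073 to 0.0223. Without the first control sample, 8 were called, as SLC5A3, SLC26A2 and SLC2A8 joined. Without the first knockdown sample, those 3 joined and SLC4A7 was lost (7 called), and without the second, SLC22A18 joined (6 called).

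DESeq2 passed 11 members by adjusted p alone. Without a filter on low counts, edgeR called 3 members, 1 higher, with 3 past the adjusted p. On log2(FPKM + 1) limma called 3, 1 higher, with a median of 0.0631 and a CHD7 log2 fold change of -0.51, under the fold threshold. With a pseudocount of 0.1 the median was 0.0699 and that of CHD7 -0.58. Without the FPKM filter limma called 0 members, 0 higher and 0 lower, with 0 past the adjusted p and 29 at an unadjusted p under 0.05, while the median was 0.0631 and that of CHD7 -0.51. Scaling by library totals moved the median to 0.0538 and that of all genes to 0.0445. Of the members at 5 FPKM or more, 2 were called, 1 higher and 1 lower. Beyond the numbers of genes or samples in each fit, the causes were not tested.

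The labels do not say whether equal replicate numbers marked paired samples, and the correlations above could not settle it. A replicate block in edgeR called 5 members with 13 past the adjusted p, and in DESeq2 it called 1, 0 higher and 1 lower, with 3 past the adjusted p. The crossed pairing, chosen after seeing the data, called 5 with 50 past the adjusted p. The share of all genes that passed in each alternative fit is not given here. The counts of members under the alternatives therefore do not set members apart from other genes. None of the 19 members that passed the test changed direction under the alternatives run.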

Other observations

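Carriers whose symbols lie outside the SLC pattern, such as the sideroflexins and mitochondrial uncoupling proteins, were counted as a list of 36 tested genes, chosen with earlier results of these data known. Of these, 2 were called lower and 0 higher, against 1.37% and 1.51% of all genes tested. XPR1, the phosphate exporter, was at 73.6 and 75.9 CPM in control cells, compared with 45.3 and 43.9 CPM after knockdown, a log2 fold change of -0.74 ± 0.09 (SE, n = 2 per group, adjusted p = 2.76e-06, edgeR). NIPAL2, of a family of magnesium transporters, was at 9.73 and 11.6 CPM with the control hairpin and 6.17 and 5.26 CPM with CHD7 shRNA-2, a log2 fold change of -0.90. Both fell with groups that did not overlap. The phosphate importers SLC20A1 and SLC20A2, which work against XPR1, had log2 fold changes of 0.13 and -0.23 and did not pass the test.

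Without the fold threshold, 5 further genes of these 36 rose, against 591 of the 11955 genes tested. In all, 3 of the 36 passed lower, the 2 called and ANKH, against 782 of all genes tested. LETM1, an exchanger of cations and protons in the inner mitochondrial membrane, rose by a log2 fold change of 0.37. SFXN2, a sideroflexin of mitochondria, rose by 0.43 on the log2 scale. The other three were NIPAL3, with 0.35, SPNS1, a lysosomal lysophospholipid transporter, with 0.33, and UCP2, a mitochondrial carrier, with 0.29. ANKH, which exports citrate and ATP, fell by 0.29 on the log2 scale. Of 10 tested proteins that accompany carriers, such as basigin (BSG), which escorts SLC16A1 and SLC16A3 to the surface and was at 316 FPKM, none passed the test.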
